A study of Mus musculus with 12 samples.

Results

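Wnt ligands, their receptors and Dishevelled form the part of the Wnt pathway that lies upstream of the phosphorylation of β-catenin by GSK3β. The 39 genes examined here were matched by symbol, and this gene group was chosen with earlier results of these data known. They are the 19 *Wnt* ligand genes, the 10 Frizzled receptor genes *Fzd1* to *Fzd10*, the 3 Dishevelled genes and the coreceptor genes *Lrp5* and *Lrp6*. The others are the alternative receptor genes *Ryk*, *Ror1* and *Ror2*, and *Porcn* and *Wls*, which serve ligand secretion. All 39 were found among the 41444 genes of the table. RNA-seq was performed on pre-B cells from mouse bone marrow, genotype *Ctnnb1* fl/fl, whose floxed β-catenin alleles are open to deletion by Cre, after retroviral transformation with *BCR*–*ABL1*, a model of B-ALL maintained in culture. The cells compared carried the ERT2 vector, which has no Cre, so β-catenin stayed intact. Control cells received 4-OHT (1 µM) for 2 days, and treated cells received the same 4-OHT together with the GSK3 inhibitor LY2090314 (40 nM) for 1 day, with 3 samples in each group. The time is that of the labels, whereas the study's legend gives a shorter exposure. The labels name no vehicle for the control and no age of the mice. The series holds 12 samples in 4 groups, and the samples with Cre-ERT2 are not analysed here.

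In the textbook pathway, a Wnt ligand is acylated by the enzyme encoded by *Porcn*, carried to the cell surface by Wls and bound by a Frizzled receptor together with LRP5 or LRP6. The engaged receptors recruit Dishevelled, and the complex that phosphorylates β-catenin through GSK3β and CK1α is held back. Ryk and the Ror receptors bind Wnt ligands as well and are linked to branches of the pathway that do not act through β-catenin. LY2090314 blocks GSK3 directly rather than through a ligand or receptor.

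The values are rlog values, log2 read counts scaled for library size in which genes with few reads are drawn towards their mean over samples, so that differences of low genes are understated. They are not divided by gene length. The table holds no read counts and the depth of each library is unknown. The columns of treated samples 1 and 2 begin with the same number, whose meaning is not given, and were counted as separate samples. The sample numbers used here only name columns. Across the 11536 genes with a mean rlog of at least 3 over the 6 samples, the SD of the difference between 2 libraries was 0.185 to 0.253 within a group and 0.581 to 0.622 between the groups. This SD was 0.186 between treated samples 1 and 2 and 0.253 between each of them and treated sample 3. It was 0.185 to 0.239 among the control samples. The study describes its replicates as separate mice, and whether the 2 libraries whose columns share a number came from 1 mouse is not given. All 10 B-lineage markers were above the limit of 3, and 8 of the 10 were called lower in treated cells, against 25.3% of all genes. Their log2 differences ran from −1.93 for *Rag1*, −1.54 for *Pax5* and −1.42 for *Igll1* to 0.23 for *Cd79a*, which was not called. The summed back-transformed level of this list was 109500 to 110900 in control and 79690 to 87660 in treated samples. Of markers of other cells, none of 6 for T cells, none of 4 for erythroid cells and none of 6 for stroma reached it. Among 6 myeloid markers only *Lyz2* did, with means of 5.80 in control and 6.34 in treated cells, and among 4 endothelial markers only *Pecam1* did, with means of 10.51 and 11.72. The sum for the myeloid list was 57.9 to 66.6 in control and 84.9 to 92.0 in treated samples, that of the endothelial list 1416 to 1498 and 3126 to 3509. The first sum was mostly *Lyz2* and the second almost wholly *Pecam1*, so they describe single genes and not the lists. For *Cdh5*, *Kdr* and *Tek*, the other endothelial markers, the groups overlapped. Among the other myeloid markers only *Itgam*, under the limit, had all treated samples above all controls. The part of these shifts in the results was not tested. In bulk RNA, fewer cells of a type and less RNA per cell cannot be told apart.

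Of the 39 genes, 12 had a mean rlog of at least 3: the ligand *Wnt5b*, the ligand carrier *Wls*, the receptors *Fzd5*, *Fzd6*, *Fzd7*, *Fzd9* and *Ryk*, the coreceptors *Lrp5* and *Lrp6*, and *Dvl1*, *Dvl2* and *Dvl3*. Each of these was above 3 in both groups, so none was kept because of one group alone. The lowest of them was *Fzd6*, with a mean of 3.81, and the highest gene left out was *Wnt4*, with a mean of 2.25. After LY2090314, *Ryk*, *Wnt5b* and *Fzd6* rose and *Fzd7*, *Fzd9* and *Wls* fell (adjusted p under 0.05 over all genes tested, limma), whereas the coreceptors and the Dishevelled genes did not pass the test. These 6 of 12 genes compare with 50.1% of all 11536 genes called, 24.8% higher and 25.3% lower, so the share of called genes was that of the transcriptome. In 7 of the 12 the treated and control samples did not overlap, against 58.6% of all genes. The median size of the log2 difference was 0.24 for the 12 genes and 0.24 over all genes. A called difference of at least 1 in either direction was found for *Fzd7*, *Fzd9* and *Ryk*, or 3 of the 12, against 6.01% of all genes.

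**Figure D1:**
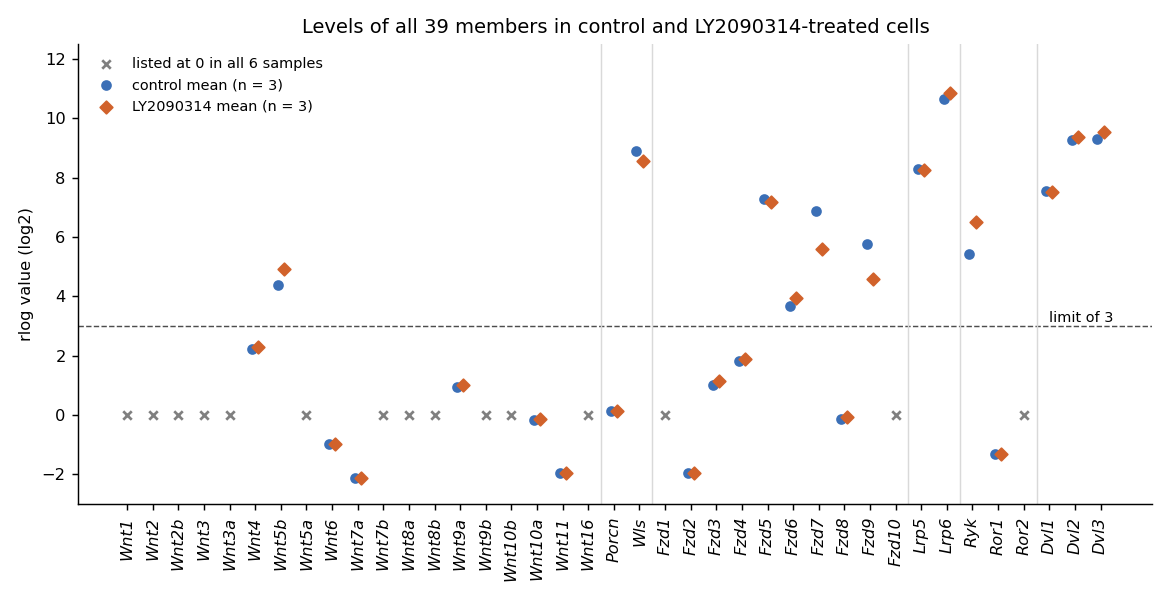
Mean rlog value (log2, y axis) of all 39 genes (x axis, ordered by role) in control cells (circles) and LY2090314-treated cells (diamonds), 3 samples each. Crosses mark the 15 genes listed at 0 in all 6 samples, and the dashed line is the limit of 3 that 12 genes exceeded.

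On the ligand side, only *Wnt5b* was above the limit among the 19 genes, and *Wls* was well above it while *Porcn* was not. *Wnt5b*, which encodes a ligand known mainly for signaling without β-catenin, had rlog values of 4.33, 4.39 and 4.46 in control samples and 5.07, 4.94 and 4.72 in treated samples. All treated samples were above all controls. The log2 difference of 0.52 (95% interval 0.27 to 0.77, adjusted p = 0.0050, limma) is a 1.43-fold higher level. Of the other 18 ligand genes, 12 were listed at 0 in every sample, among them *Wnt3a*, *Wnt1* and *Wnt5a*. The remaining 6 had means of 2.25 for *Wnt4*, 0.99 for *Wnt9a*, −0.16 for *Wnt10a*, −0.97 for *Wnt6*, −1.96 for *Wnt11* and −2.12 for *Wnt7a*. Values this low are set largely by the shrinkage and cannot be ranked against an entry of 0. The table as a whole lists 21786 genes at 0 in all 6 samples, while each of 10 housekeeping genes looked up had an rlog of at least 9.45.

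*Wls*, the carrier of acylated ligands, had rlog values of 9.01, 8.96 and 8.76 in control samples against 8.43, 8.61 and 8.62 in treated samples. The groups did not overlap, although the lowest control and the highest treated sample lay close together. The log2 difference was −0.36 (95% interval −0.56 to −0.15, adjusted p = 0.012, limma). *Porcn*, which encodes the acyltransferase, was listed at 0.15 in all 6 samples and was not tested.

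The Frizzled receptors showed the largest falls and also a rise. *Fzd7* had rlog values of 6.79, 6.93 and 6.87 in control samples and 5.60, 5.66 and 5.54 in treated samples. The groups were separated by more than 1 log2 unit, and the difference of −1.26 (95% interval −1.46 to −1.06, adjusted p = 1.4e-05, limma) is a 2.40-fold lower level. *Fzd9* had values of 5.60, 5.72 and 5.94 in control samples and 4.58, 4.66 and 4.50 in treated samples. Here too every treated sample was below every control, with a difference of −1.17 (95% interval −1.43 to −0.92, adjusted p = 8.0e-05, limma), a 2.25-fold lower level. For *Fzd5*, the values were 7.48, 7.26 and 7.10 in control samples and 7.18, 7.32 and 7.02 in treated samples. The groups overlapped and the difference of −0.11 (95% interval −0.40 to 0.18, adjusted p = 0.49, limma) did not pass the test. *Fzd6* was lower than the other 3 in both groups, with 3.67, 3.63 and 3.74 in control samples against 3.86, 4.01 and 3.93 in treated samples. It was higher by 0.25 in treated cells (adjusted p = 0.030, limma). This call was lost with quantile normalization (adjusted p = 0.14, limma) and without control sample 1, control sample 2 or treated sample 2 (adjusted p = 0.076, 0.097 and 0.10, limma). *Fzd1* and *Fzd10* were listed at 0 throughout, and *Fzd4*, *Fzd3*, *Fzd8* and *Fzd2* had means of 1.86, 1.07, −0.09 and −1.96.

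The differences between Frizzled genes within a sample, which a shift of a whole library cannot change, moved in the same way. Since *Fzd5* changed little, the differences from *Fzd5* largely restate those of the single genes. *Fzd7* minus *Fzd5* was −0.69, −0.33 and −0.23 in control samples and −1.58, −1.65 and −1.48 in treated samples. *Fzd9* minus *Fzd5* was −1.89, −1.54 and −1.16 in control samples and −2.60, −2.66 and −2.52 in treated samples. Neither pair of groups overlapped. A two-sided permutation test, exact over the 6 samples, returned p = 0.10 for both, the smallest value that 3 samples against 3 allow. *Fzd7* minus *Fzd9*, by contrast, was 1.11 ± 0.16 in control and 1.02 ± 0.017 in treated samples (SD, n = 3 each), with overlapping groups (exact permutation p = 0.40). *Fzd6* minus *Fzd5* was higher by 0.36 in treated samples, without overlap (exact permutation p = 0.10). These pairs were chosen after the values were seen.

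Levels of different receptors were compared per length, as rlog minus log2 of the exon length in kb. On this scale *Fzd7*, *Fzd9* and *Fzd5* lay close together in control cells, at 4.68, 4.55 and 4.49, and the gaps between neighbours were smaller than the larger of their SDs (0.066, 0.17 and 0.19, n = 3). *Fzd6* was at 1.41. In treated cells *Fzd5* stood at 4.38, above *Fzd7* at 3.42 and *Fzd9* at 3.38, whose gap was again within their spread. Back-transformed to a linear scale, the summed level of the 4 receptors per kb was 74.1, 74.6 and 75.2 in control samples and 45.1, 48.6 and 42.1 in treated samples, so treated cells held 0.61 of the control level. The share of *Fzd5* in this sum was 30.4% ± 4.3 in control and 46.2% ± 1.4 in treated samples (SD, n = 3 each), that of *Fzd7* 34.5% ± 1.5 and 23.7% ± 0.68, that of *Fzd9* 31.6% ± 3.6 and 23.1% ± 0.39, and that of *Fzd6* 3.57% ± 0.11 and 7.01% ± 0.43. Control and treated samples did not overlap in any of these shares or in the sum (exact permutation p = 0.10 each). The shares of a sample make up its whole sum, so they depend on each other and restate the differences of the single genes. Which protein is at the cell surface was not measured.

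**Figure D2:**
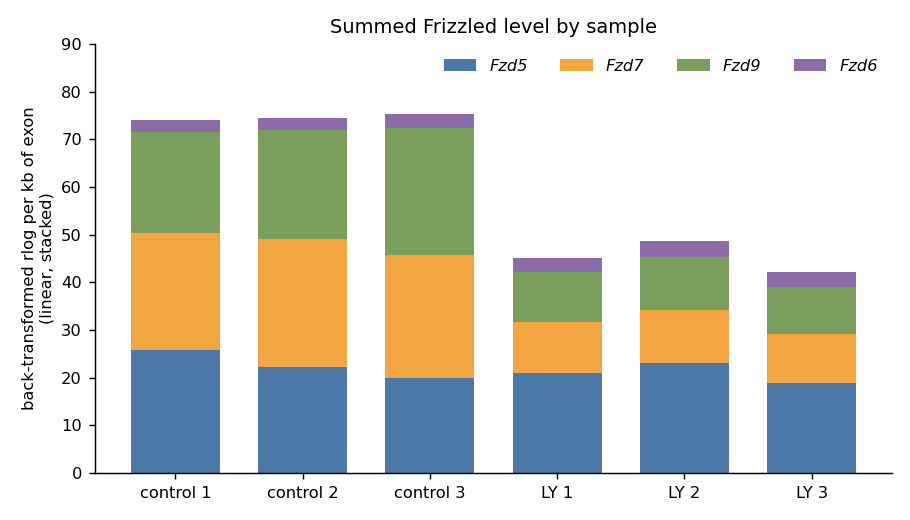
Summed level of *Fzd5*, *Fzd7*, *Fzd9* and *Fzd6* in each of the 6 samples, as back-transformed rlog per kb of exon on a linear axis from 0, each segment being one gene. The *Fzd7* and *Fzd9* segments shrink in the 3 treated samples while the *Fzd5* segment changes little, and the sum is 74.1 to 75.2 in control and 42.1 to 48.6 in treated samples.

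Of the alternative receptors, *Ryk*, which encodes a Wnt receptor with an inactive kinase domain, rose. Its rlog values were 5.35, 5.50 and 5.39 in control samples and 6.41, 6.39 and 6.69 in treated samples. All treated samples lay above all controls, and the difference of 1.09 (95% interval 0.83 to 1.34, adjusted p = 0.00012, limma) is a 2.12-fold higher level. Per kb of exon, *Ryk* went from 3.23 in control to 4.32 in treated cells, below *Fzd7* in the first and above it in the second. The rlog difference *Ryk* minus *Fzd7* was −1.45 ± 0.022 in control and 0.90 ± 0.23 in treated samples (SD, n = 3 each). *Ror1* had a mean of −1.31 and *Ror2* was listed at 0, so no Ror receptor reached the limit.

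The coreceptors were expressed in all samples. *Lrp6* had rlog values of 10.81, 10.71 and 10.43 in control samples against 10.93, 10.91 and 10.72 in treated samples, and *Lrp5* had 8.25, 8.45 and 8.19 against 8.18, 8.44 and 8.17. The groups overlapped for both. *Lrp6* differed by 0.20 (95% interval −0.04 to 0.44, adjusted p = 0.14, limma) and *Lrp5* by −0.03 (95% interval −0.27 to 0.21, adjusted p = 0.83, limma). Per kb, *Lrp6* made up 78.4% ± 2.1 of the coreceptor sum in control and 81.0% ± 1.5 in treated samples (SD, n = 3 each), with overlap between the groups. *Lrp6* was the more abundant coreceptor transcript in each of the 6 samples.

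The Dishevelled genes encode the adaptors that the activated receptors recruit. *Dvl2* had values of 9.23, 9.25 and 9.29 in control samples and 9.37, 9.41 and 9.33 in treated samples, all treated above control, yet the difference of 0.12 (95% interval −0.01 to 0.24, adjusted p = 0.11, limma) did not pass the test. *Dvl3* had 9.38, 9.35 and 9.14 in control samples and 9.66, 9.59 and 9.35 in treated samples, with overlapping groups and a difference of 0.24 (adjusted p = 0.075, limma). *Dvl1* had 7.68, 7.56 and 7.44 in control samples and 7.79, 7.73 and 7.04 in treated samples. Treated sample 3 was the lowest of the treated samples for all 3 genes, and for *Dvl1* it was below every control. Without it, *Dvl3* was called higher by 0.34 (adjusted p = 0.013, limma), and the difference of *Dvl1* went from −0.04 to 0.20 (adjusted p = 0.87 and 0.13, limma). That fit kept only treated samples 1 and 2, whose columns share a number, so their spread may be too small. With these 2 columns averaged, *Dvl3* differed by 0.20 and *Dvl1* by −0.16 (adjusted p = 0.20 and 0.56, limma), and neither was called. Per kb, *Dvl1* contributed 16.3% ± 0.78 of the Dishevelled sum in control and 14.4% ± 2.6 in treated samples (SD, n = 3 each). *Dvl2* and *Dvl3* contributed 41.7% ± 2.6 and 42.0% ± 2.0 in control samples and 40.8% ± 3.2 and 44.8% ± 0.88 in treated samples. These shares depend on the length used. With the longest transcript, *Dvl2* and *Dvl3* contributed 38.1% and 49.4% in control samples and 36.9% and 52.2% in treated samples. With either length the groups overlapped for the shares of *Dvl1* and *Dvl2* but not for that of *Dvl3* (exact permutation p = 0.10).

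**Figure D3:**
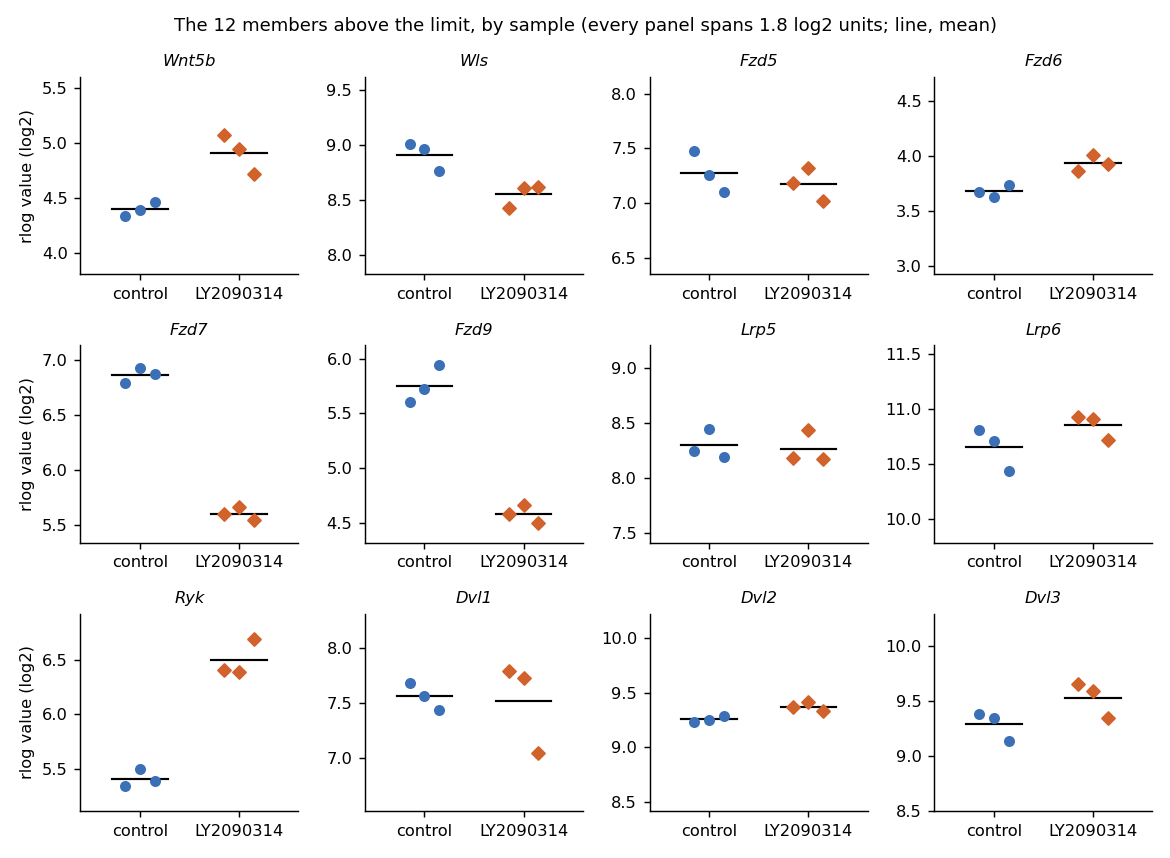
The rlog value (log2, y axis) of each of the 12 genes above the limit in every control sample (circles) and LY2090314-treated sample (diamonds), with the mean of 3 as a line. All panels span the same number of log2 units, and the clearest separation is seen for *Fzd7* (6.79 to 6.93 against 5.54 to 5.66), *Fzd9* and *Ryk*.

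**Figure D4:**
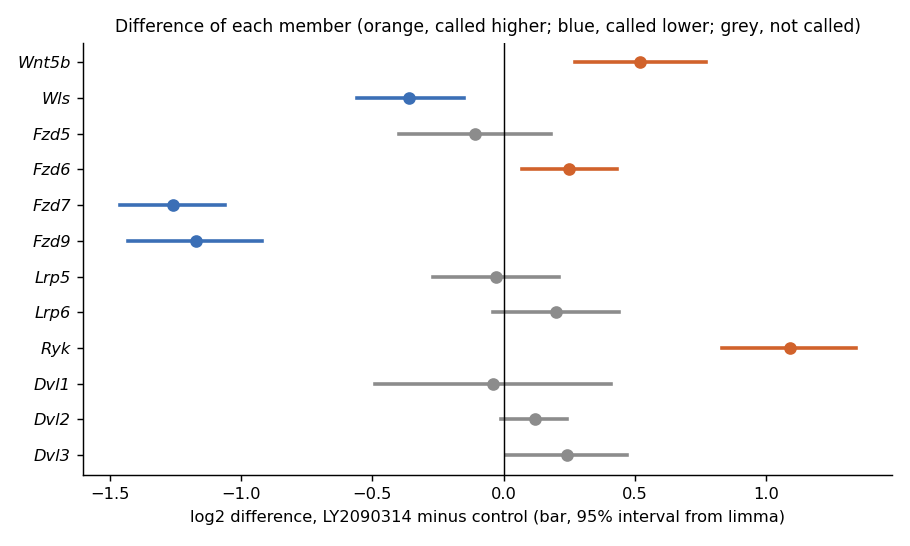
Log2 difference, LY2090314 minus control (x axis), of the 12 genes with the 95% interval from limma (bars, 3 samples per group). Orange genes were called higher, blue genes lower and grey genes were not called. *Fzd7* (−1.26), *Fzd9* (−1.17) and *Ryk* (1.09) lie farthest from 0.

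Gene positions refer to GRCm38 and were read from GENCODE vM21. *Fzd7* (ENSMUSG00000041075) spans 59482424 to 59486955 on chromosome 1, plus strand, and *Fzd9* (ENSMUSG00000049551) 135248938 to 135251230 on chromosome 5, minus strand. *Ryk* (ENSMUSG00000032547) spans 102834917 to 102908305 on chromosome 9, plus strand, *Wnt5b* (ENSMUSG00000030170) 119432531 to 119544347 on chromosome 6, minus strand, and *Wls* (ENSMUSG00000028173) 159839672 to 159938664 on chromosome 3, plus strand. None of these 5 shares exon sequence with another annotated gene. An exon of *Fzd6* (ENSMUSG00000022297, chromosome 15, 39006034 to 39038188) overlaps *Gm26704* on the other strand, which was listed at 0 in all samples. Exons of *Dvl2* overlap *Acadvl* on the other strand, with means of 9.36 in control and 9.23 in treated cells, and *Mir324* on the same strand, listed at 0. Exons of *Dvl1* overlap *Tas1r3* on the other strand, with means of 2.42 in control and 2.66 in treated cells. Those of *Fzd5* overlap *Gm38058* on the other strand, with means of −1.64 and −1.65. Whether the quantification used strand is not stated, so reads of these neighbours cannot be told apart with certainty.

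Promoter sequence is shown for the gene with the largest rise, the gene with the largest fall, the Frizzled gene that was not called, and the only ligand above the limit. RefSeq sequences of GRCm38.p6 were given for 9 of the 12 genes. The 250 bases before the RefSeq start were searched on both strands for CTTTGAT and CTTTGAA, core words of TCF/LEF factors, and for TGGGAA, a core word of Ikaros factors. These are held by 3.20%, 4.46% and 21.6% of 32851 promoters of the same length. Windows are *Fzd7* at chr1:59481897-59482146 on the plus strand, *Fzd5* at chr1:64737751-64738000 on the minus strand, *Ryk* at chr9:102834670-102834919 on the plus strand and *Wnt5b* at chr6:119449387-119449636 on the minus strand, the last being 1 of 3 RefSeq starts. GENCODE places the start of *Fzd7* downstream of the RefSeq start. Bases run 5′ to 3′, and capitals mark a match.
Fzd7: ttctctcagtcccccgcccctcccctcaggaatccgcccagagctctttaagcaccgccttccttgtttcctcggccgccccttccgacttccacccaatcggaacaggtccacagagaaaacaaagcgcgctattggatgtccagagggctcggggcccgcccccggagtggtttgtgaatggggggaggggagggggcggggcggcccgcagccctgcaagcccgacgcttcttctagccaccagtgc
Fzd5: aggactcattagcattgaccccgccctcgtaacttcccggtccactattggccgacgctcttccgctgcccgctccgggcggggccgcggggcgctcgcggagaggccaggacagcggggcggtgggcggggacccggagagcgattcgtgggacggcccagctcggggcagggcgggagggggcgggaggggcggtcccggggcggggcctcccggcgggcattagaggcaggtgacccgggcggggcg
Ryk: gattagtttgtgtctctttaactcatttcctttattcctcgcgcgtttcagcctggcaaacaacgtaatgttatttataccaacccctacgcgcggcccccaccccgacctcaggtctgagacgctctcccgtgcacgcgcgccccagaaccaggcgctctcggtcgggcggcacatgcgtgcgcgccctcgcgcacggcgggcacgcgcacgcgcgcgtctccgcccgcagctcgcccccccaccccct
Wnt5b: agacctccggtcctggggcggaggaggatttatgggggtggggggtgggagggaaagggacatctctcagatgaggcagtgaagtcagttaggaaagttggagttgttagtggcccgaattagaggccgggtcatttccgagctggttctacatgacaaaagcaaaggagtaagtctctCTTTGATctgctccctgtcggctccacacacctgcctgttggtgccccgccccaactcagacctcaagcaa

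No TCF/LEF or Ikaros word lay in the windows of *Fzd7*, *Fzd5* and *Ryk*, nor in those of *Fzd9*, *Dvl2* and *Dvl3*. The printed *Wnt5b* window held CTTTGAT, starting 71 bases before this start. Of its other starts neither held a TCF/LEF word, and one held the Ikaros word, 68 bases before it. The Ikaros word also lay 211 bases before the start of *Wls* and 171 bases before that of *Dvl1*. This window was chosen after the match was seen. The GC content was 65.2% for *Fzd7*, 76.4% for *Fzd5*, 65.2% for *Ryk* and 55.6% for this *Wnt5b* window, against a median of 52.4% over all promoters. A match is a description of the letters, and binding was not measured.

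Other genes of the pathway were examined as lists in the same fit. Of 91 such genes found in the table, 51 were above the limit, of which 21 rose and 9 fell, or 58.8% against the 50.1% of all genes. The lists were chosen with earlier results of these data known. They also hold *Nkd1*, *Nkd2*, *Kremen1*, *Axin2*, *Tcf7* and *Tle3*, which the study reports as increased when β-catenin is stabilized. The share called in each list is therefore a description and not a test. Closest to the receptors, *Lgr4* and *Lgr5*, which encode R-spondin receptors, fell by 0.53 and 1.44 on the log2 scale (adjusted p = 0.0044 and 1.7e-05, limma), and *Znrf3*, a ligase that removes Frizzled proteins from the membrane, rose by 1.47 (adjusted p = 1.3e-06, limma). *Znrf3* went from 8.97 ± 0.070 to 10.45 ± 0.082 (SD, n = 3 each), while its paralog *Rnf43* was under the limit at −1.49 to −1.41. The 4 R-spondin genes were listed at 0. Of 8 genes for ligand and receptor handling above the limit, 3 rose, led by *Atp6ap2* with 0.61 (adjusted p = 4.0e-05, limma), and *Mesd*, the chaperone of LRP5 and LRP6, was higher by 0.34 (adjusted p = 0.0062, limma).

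Among 19 Dishevelled partners and planar cell polarity genes, 9 rose and 3 fell, or 63.2% called. As for the other lists, this stands beside 50.1% of all genes called, 24.8% higher and 25.3% lower. The kinases that phosphorylate Dishevelled were both higher, *Csnk1e* by 0.73 (adjusted p = 0.00074, limma) and *Csnk1d* by 0.31 (adjusted p = 0.0012, limma). The Dishevelled-binding inhibitors *Nkd1* and *Nkd2* rose by 5.44 and 1.36 (adjusted p = 1.6e-08 and 6.2e-06, limma). *Vangl2*, a polarity protein gene, rose by 1.87, whereas *Celsr1*, which encodes its cadherin partner, had a log2 difference of −1.27 (adjusted p = 5.9e-06 and 4.9e-06, limma). Of 4 antagonist genes, *Kremen1*, *Sfrp2* and *Apcdd1* rose and *Dkk3* fell, with log2 differences of 3.38 for *Kremen1* and −0.55 for *Dkk3* (adjusted p = 4.0e-08 and 0.0087, limma). *Sfrp2* had a control mean of 2.83 and was kept only through its treated level. *Lgr4*, *Mesd*, *Vangl2*, *Sfrp2* and *Apcdd1* were picked for mention after their values were seen. In the destruction complex 1 gene rose and 1 fell of 10, or 20.0% called against 50.1% of all genes. *Axin2* rose by 1.67 and *Ctnnb1* fell by 0.35 on the log2 scale (adjusted p = 1.5e-05 and 0.00030, limma). Among TCF/LEF and TLE genes 4 rose and 2 fell of 7, led by *Tcf7* with 2.62 and *Tcf7l2* with −1.11 (adjusted p = 7.7e-08 and 0.00021, limma).

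**Figure D5:**
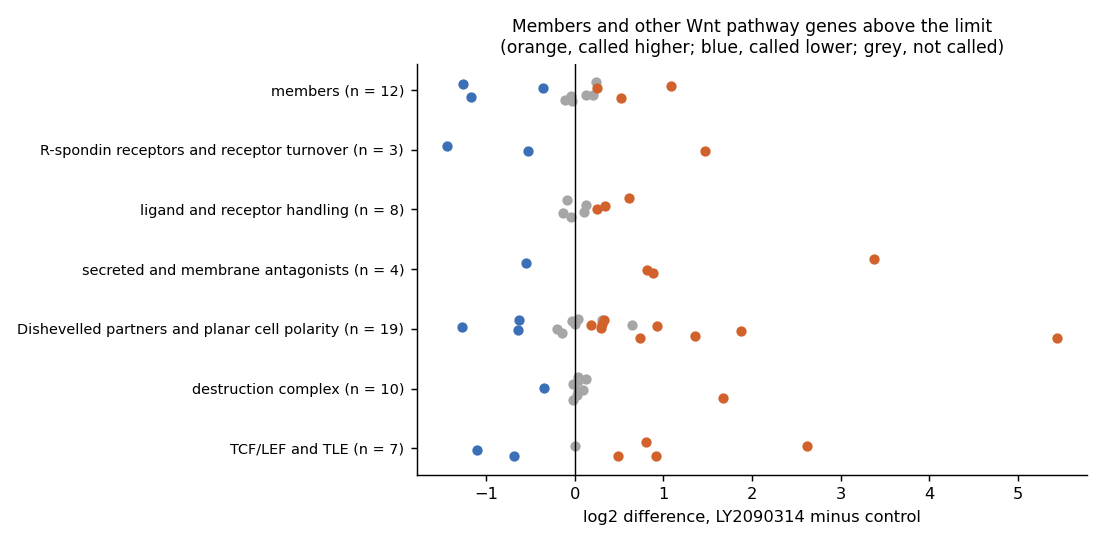
Log2 difference, LY2090314 minus control (x axis), of the 12 genes described here (top row) and of the other Wnt pathway genes above the limit, by list (rows, n in brackets). Each point is one gene, orange if called higher, blue if called lower and grey if not called. The farthest point is *Nkd1* at 5.44, and the lowest value in the R-spondin row is *Lgr5* at −1.44.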

How the data were processed

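Libraries of polyadenylated RNA were sequenced in pairs (KAPA stranded kit). Per the methods, the authors ran Salmon for transcript quantification and STAR for alignment (GRCm38, GENCODE vM24), followed by DESeq2. The submitters' processing notes also list SAMtools 1.7 and FastQC 0.11.9. The authors deposited rlog values, a log2 scale, for 41444 genes. Which samples entered the rlog transformation is not given in the sources used here.

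Columns were matched to groups by name, and 6 further columns, whose names combine Cre and LY, were not used. Symbols matched 41157 identifiers. Genes with a mean rlog of at least 3 over the 6 samples were fitted with limma 3.58.1 in R 4.3.3 (eBayes with trend), with Benjamini-Hochberg adjustment over all 11536 genes and a threshold of 0.05. The study's DESeq2 models need counts and were not used. Every member above the limit is named. For the other lists, the rule named the largest called rise and fall of each and 7 further genes (*Csnk1d*, *Csnk1e*, *Znrf3*, *Rnf43*, *Nkd1*, *Nkd2*, *Ctnnb1*). Exon lengths are unions of GENCODE vM21 exons. The calculations were tested on simulated data. The members and lists were chosen with earlier results of these data known. Alternatives were another variance model, limits on the mean, scalings, left-out samples, averaged columns and stricter calls. P-values measure the spread between these samples.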

Additional observations from a re-analysis of the deposited data

How the results depend on the processing

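Under 12 alternatives that refit the model at the same threshold, *Fzd7* (−1.36 to −1.23), *Fzd9* (−1.28 to −1.08), *Ryk* (0.98 to 1.14) and *Wls* (−0.43 to −0.30) kept their direction and their call, and so did *Wnt5b* (0.37 to 0.61) in the 11 in which it was tested. The highest adjusted p (limma) among these was 0.049, for *Wls*. *Fzd6* lost its call in 4 of 11, as described. With each sample left out in turn, 5 to 7 members were called, 2 to 4 of them higher and 3 lower. In the same fits 29 to 35 other pathway genes were called, 20 to 23 higher and 9 to 12 lower. Over all genes, these fits called from 4741 of 11544 without control sample 2 to 6225 of 11528 without treated sample 3. The fit without treated sample 3 also gave the highest counts of members and of other pathway genes. With the columns that share a number averaged, 6 members and 29 other pathway genes were called, beside 4940 of 11529 genes. *Lrp5* (−0.12 to 0.045) and *Dvl1* (−0.18 to 0.20) changed sign with single samples left out and were called in none. A limit of 5 on the mean removed *Wnt5b* and *Fzd6*, leaving 1 member called higher, beside 5392 of 10078 genes called in either direction. An adjusted p under 0.01 (limma) left *Wnt5b*, *Ryk*, *Fzd7* and *Fzd9*, so *Wls* and *Fzd6* lost their calls. The share of all genes called at 0.01 was not computed. A log2 difference of at least 1 left 3 members (*Ryk*, *Fzd7*, *Fzd9*), 1 of them higher, and 10 of 51 other pathway genes, 7 higher and 3 lower, against 6.01% of all genes. The cause was in each case the stricter limit. The level per kb of *Wls* in control cells was 5.77 with all exons and 7.08 with the longest transcript. For *Dvl2*, *Dvl3*, *Fzd6*, *Lrp6*, *Ryk* and *Wnt5b* the choice of length also moved this level by at least the control SD. *Ryk*, for example, went from 3.23 to 3.79 in control and from 4.32 to 4.88 in treated cells. No paired analysis was possible because the columns carry no replicate number of the labels. Without counts, what depth limits was not assessed.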
